A study of Mus musculus with 6 samples.

Results

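Voltage-gated calcium and sodium channels were examined in bulk RNA sequencing of stroke-injured mouse cortex, as all genes whose symbol begins with Cacna, Cacnb, Cacng or Scn followed by a digit. The rule found 40 of the 24421 gene symbols in the count table, and 34 of the 40 had enough counts to be tested among 14852 genes. All samples are C57BL/6 brain, named as cortex in the sample descriptions, and every animal had MCAO, the surgical blocking of the middle cerebral artery that models ischaemic stroke. The control group, GFP_MCAO, received green fluorescent protein, and the other, NeuroD1_MCAO, received NeuroD1, a transcription factor that drives neuronal differentiation, with 3 libraries in each. The title of the series describes an intravenous gene therapy. The sources used here do not give the vector, promoter or cell type that drives either gene, the time after MCAO, or age and sex. Because the labels number the samples without naming separate animals, the p-values below reflect spread among these samples only, and some of it may be technical.

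Voltage-gated sodium channels open on depolarisation and carry the rising phase of the action potential. Each is a large alpha subunit that forms the pore, joined by small beta subunits that tune gating and hold the channel at the axon initial segment and nodes. Voltage-gated calcium channels turn depolarisation into calcium entry, which triggers transmitter release, dendritic calcium signals and gene expression. Their pore subunits fall into the L-type Cav1, the presynaptic Cav2 and the low-voltage-activated Cav3 groups. Alpha2delta and beta subunits bring the Cav1 and Cav2 pores to the membrane. Most of the gamma genes expressed in cortex encode transmembrane AMPA receptor regulatory proteins (TARPs), which bind glutamate receptors. The comparison asks how the channel genes of the injured cortex differ when NeuroD1 rather than GFP is given.

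The count of Neurod1 itself was 64, 29 and 50 with GFP (replicates 1 to 3) and 644, 151 and 428 with NeuroD1. Every NeuroD1 library was above every GFP library, in the direction of the labels. Its log2 fold change was 2.68 (SE 0.45, edgeR quasi-likelihood test, adjusted p = 0.136). Reads of an introduced gene and of the endogenous gene cannot be told apart. Total counts ran from 7753101 to 13440244 per library, with the 3 deepest libraries all in the NeuroD1 group. Levels below are CPM, counts relative to a library size scaled by the TMM method, given for replicates 1, 2 and 3 in that order, and a single count was worth 0.0753 to 0.134 CPM.

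NeuroD1 replicate 2 stood apart before any channel was compared. Summed over the 12 pan-neuronal markers it held 2190 CPM, against 5056 and 6080 in the other NeuroD1 libraries and 3068 to 5654 with GFP. All 8 skeletal muscle markers were highest in this library, at 285.7 CPM in sum against 6.33 to 15.2 CPM in the other 5 libraries. The muscle myosin gene Myh4 had 992 counts there and 4 to 6 elsewhere. Creatine kinase of muscle, Ckm, had 243 counts there and 0 to 4 elsewhere. Of the tested channel genes 23 of 34 (67.6%) had their lowest level in this library, against 22.4% of all tested genes. Values without it are therefore given beside the results that rest on it. Other cell types also differed between the groups. At an unadjusted edgeR p under 0.05, 12.5% of all tested genes were higher and 11.5% lower. On that scale 5 of 5 fibroblast, 3 of 6 oligodendrocyte precursor, 2 of 7 microglia and macrophage and 2 of 5 T cell markers were higher with NeuroD1. Lower were 5 of 6 endothelial, 4 of 7 pericyte and smooth muscle, 3 of 6 oligodendrocyte and 2 of 7 astrocyte markers. The part of these cell types in the channel values was not tested.

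No channel gene passed the threshold. By edgeR's quasi-likelihood test with Benjamini-Hochberg adjustment over all 14852 genes, 0 of the 34 tested members had an adjusted p under 0.05, where the background was 0% of all tested genes. DESeq2 also called 0 members, against 5.07% of its tested genes higher and 3.93% lower, and limma-voom 0. At an unadjusted p under 0.05 edgeR counted 3 members lower and 0 higher, or 8.82% of the 34 lower, where 11.5% of all tested genes were lower, 12.5% higher and 24.0% either. DESeq2 counted 4 lower and 1 higher on that scale, and limma-voom 3 and 0. Over all genes, in either direction, DESeq2 put 4114 under 0.05 and limma-voom 3529 of 14852. Separation of the groups gave a similar picture, with 6 tested members lower in every NeuroD1 library than in any GFP library and 0 higher in every one. That is 17.6% of the 34 lower and 0% higher, against 15.3% and 14.2% of all tested genes (29.6% either way). The median log2 fold change of the tested members was -0.05, and that of all tested genes 0.02. The shares of lower members are thus near the background.

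**Figure D1:**
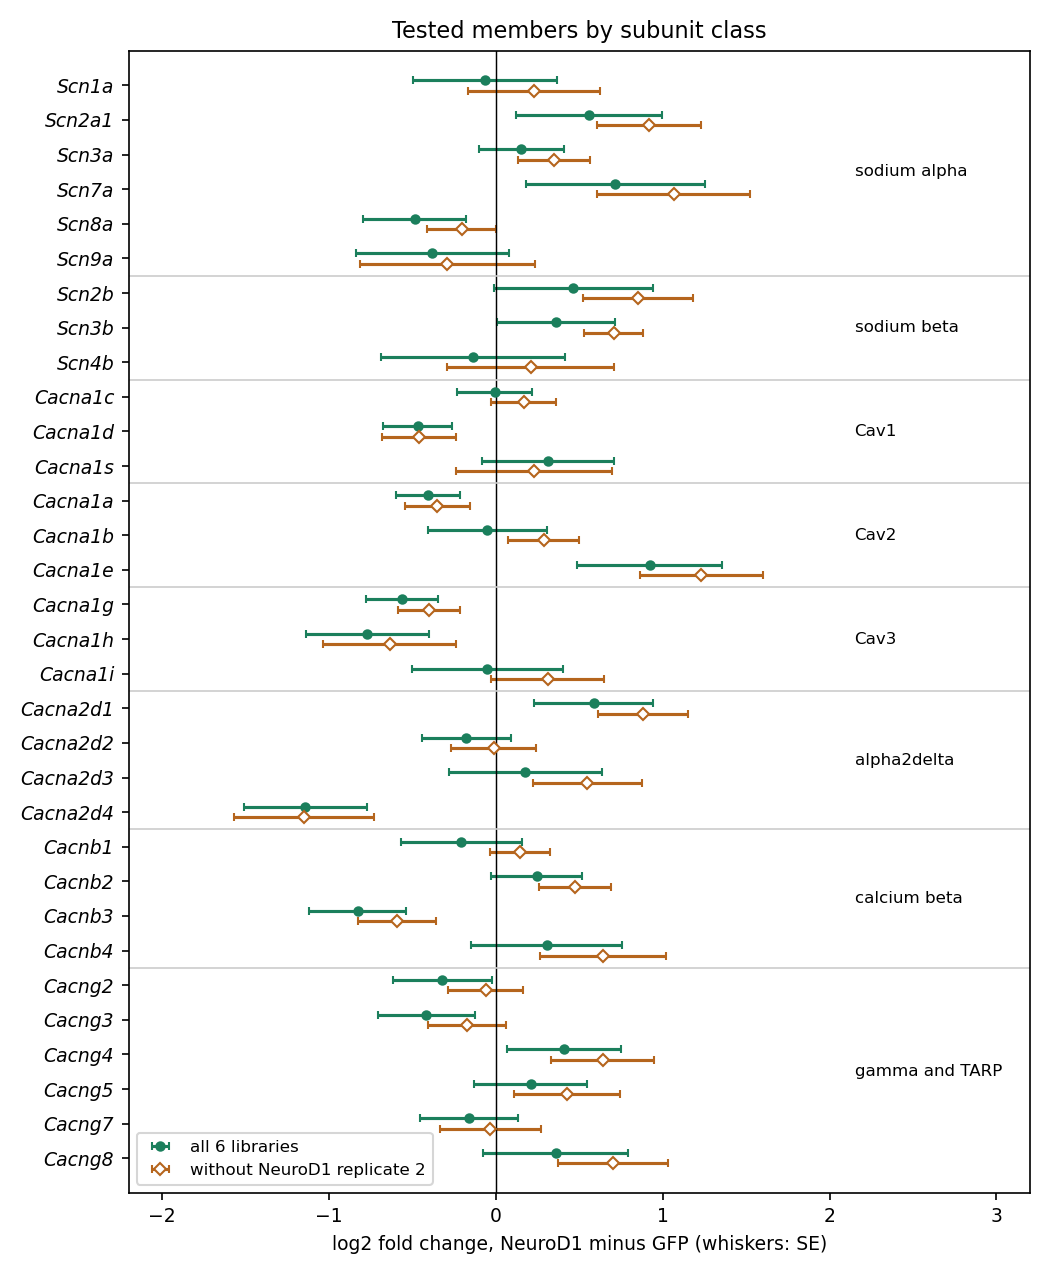
Log2 fold change of NeuroD1 against GFP for 32 of the 34 tested channel genes, grouped by subunit class, with SE as whiskers; filled circles use all 6 libraries and open diamonds leave out NeuroD1 replicate 2. The median over the 34 genes is -0.05 with all libraries and 0.23 without that library, and most diamonds sit to the right of their circles.

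The sign of the median turned on single libraries, and NeuroD1 replicate 2 moved it most. Leaving out NeuroD1 replicate 2 gave 0.23, GFP replicate 1 gave 0.16 and GFP replicate 3 gave 0.02. Without NeuroD1 replicate 2, 11 members were higher in both remaining NeuroD1 libraries than in any GFP library and 6 were lower. The backgrounds over all tested genes without it were 22.5% higher and 23.3% lower. By the unadjusted edgeR threshold 6 members were then higher (background 12.2%) and 2 lower (background 11.9%). The 6 were Cacna1e, Cacna2d1, Scn2a1, Scn2b, Scn3b and Scn7a, and the 2 were Cacnb3 and Cacna2d4. After adjustment 0 passed. The count of lower members at an unadjusted edgeR p under 0.05 was 5 on leaving out NeuroD1 replicate 3 and 1 on leaving out GFP replicate 3. Among all tested genes, 4374 of 15088 and 1891 of 15092 were then under 0.05, in either direction. Without NeuroD1 replicate 3, 10 members lay below every GFP library. The share of all tested genes that did so was not counted for that setting, so the 10 is no result about the channel genes. Whether the muscle transcripts or the lower neuronal content of NeuroD1 replicate 2 bear on these counts was not tested. In bulk tissue fewer cells of a type and less RNA per cell cannot be told apart.

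Among the sodium channel alpha subunits, Scn8a and Scn2a1 were the most abundant per kilobase of transcript. Scn8a encodes Nav1.6, the main channel of the mature axon initial segment and of nodes of Ranvier (chr15:100869858-101045938, plus strand, GRCm38). It held 250.6, 256 and 295 CPM with GFP and 235.5, 110.0 and 226.5 CPM with NeuroD1. The groups did not overlap, and 1 NeuroD1 library, replicate 2, was far below the rest. The log2 fold change was -0.49 (SE 0.31, edgeR adjusted p = 0.348), and -0.20 without that library, where the groups still did not overlap.

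Scn2a1, an older symbol of Scn2a, encodes Nav1.2, which is prominent in immature axons and in excitatory cells (chr2:65620771-65767447, plus strand). Its levels were 119.8, 67.7 and 98.3 CPM with GFP and 228, 62.2 and 131 CPM with NeuroD1. The NeuroD1 libraries held both the highest and the lowest value. The log2 fold change was 0.56 (SE 0.44, edgeR adjusted p = 0.437). It was 0.92 without NeuroD1 replicate 2 and 0.03 without NeuroD1 replicate 1. With offsets for transcript length and GC content in the fit it was 0.11. Per kilobase Scn8a averaged 23.4 ± 2.12 CPM with GFP and 16.7 ± 6.12 with NeuroD1, and Scn2a1 10.7 ± 2.93 and 15.7 ± 9.30 (SD, n = 3).

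Sequences before annotated starts of these genes are shown because the agent given is a DNA-binding factor whose family recognises the E-box, the hexamer CANNTG. Promoter windows came from RefSeq (GRCm38.p6) for 30 of the 40 members, and the 250 bases before an annotated start were searched on both strands. Windows that overlap no annotated exon follow, from Cacnb3, the beta subunit gene described below (chr15:98632078-98632327, plus strand), Scn8a (chr15:100870395-100870644, plus strand) and Scn2a1 (chr2:65620519-65620768, plus strand). Those of Cacnb3 and Scn8a lie inside the annotated span of the gene, and that of Scn2a1 lies before it. Scn8a and Scn2a1 each had a further window free of exons, which is not printed (chr15:100936021-100936270 and chr2:65668436-65668685). Capitals mark CAGATG or its reverse complement CATCTG, an E-box form that NeuroD1 is known to bind, or CAGCTG.
Cacnb3: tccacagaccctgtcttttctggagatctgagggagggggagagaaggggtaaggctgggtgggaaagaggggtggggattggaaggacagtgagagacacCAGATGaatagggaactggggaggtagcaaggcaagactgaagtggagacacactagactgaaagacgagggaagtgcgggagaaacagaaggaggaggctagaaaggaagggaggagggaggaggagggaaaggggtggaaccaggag
Scn8a: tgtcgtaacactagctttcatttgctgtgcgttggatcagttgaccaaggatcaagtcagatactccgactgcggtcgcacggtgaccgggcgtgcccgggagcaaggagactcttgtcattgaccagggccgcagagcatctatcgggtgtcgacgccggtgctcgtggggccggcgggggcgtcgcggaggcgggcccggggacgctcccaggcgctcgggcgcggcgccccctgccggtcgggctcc
Scn2a1: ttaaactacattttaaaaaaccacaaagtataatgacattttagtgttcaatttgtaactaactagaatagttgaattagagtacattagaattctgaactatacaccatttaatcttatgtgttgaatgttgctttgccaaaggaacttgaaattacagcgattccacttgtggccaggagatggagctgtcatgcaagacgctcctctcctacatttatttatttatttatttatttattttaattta
Only the Cacnb3 window among these holds such a hexamer, a single CAGATG. A further Cacnb3 window, which overlaps an exon (chr15:98634517-98634766), holds none. Windows of Cacna1c, Cacnb2 and Cacna1s, whose levels overlapped between the groups, also hold CAGATG or CATCTG. Over the 41 windows of members, 12.2% held CAGATG or CATCTG against 14.4% of all 32851 windows, and 26.8% held CAGCTG against 13.0%. Any CANNTG, which includes both forms, was in 63.4% of the members' windows and 66.2% of all. A match is a description of these letters, and windows of alternative starts of a gene are not independent.

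Scn1a encodes Nav1.1, the main alpha subunit of fast-spiking interneurons, and its levels were 72.8, 28.1 and 47.3 CPM with GFP and 74.0, 26.2 and 41.5 CPM with NeuroD1. The ranges overlapped almost fully, with a log2 fold change of -0.06 (SE 0.43, edgeR adjusted p = 0.939), which was -0.47 with the offsets for length and GC content. Scn3a, which encodes the largely embryonic Nav1.3, held 17.3, 15 and 19.1 CPM with GFP and 21.2, 13.6 and 22.3 CPM with NeuroD1. Its log2 fold change of 0.15 (SE 0.25, edgeR adjusted p = 0.73) became -0.30 with those offsets. Neither gene separated the groups.

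The remaining tested alpha subunits were scarce. Scn7a, a sodium sensor (Nax) found in glia and peripheral nerve, held 3.65, 2.14 and 5.65 CPM with GFP and 5.50, 2.81 and 10.6 CPM with NeuroD1. Its log2 fold change was 0.72 (SE 0.54, edgeR adjusted p = 0.42), and 0.13 without NeuroD1 replicate 3, the library with the highest value. Scn9a, the nociceptor channel Nav1.7, held 1.22, 1.60 and 2.82 CPM with GFP and 1.28, 1.26 and 1.80 CPM with NeuroD1, which overlap (log2 fold change -0.38, SE 0.46, edgeR adjusted p = 0.619). Exons of Scn9a share 180 bases with an antisense gene, Gm13629, whose reads cannot be told apart without a stated strand setting.

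Of the 4 sodium channel beta subunits, which are adhesion-like proteins with an immunoglobulin domain, none separated the groups. Scn2b held 151, 64.8 and 93.2 CPM with GFP and 189, 55.2 and 182 CPM with NeuroD1. Scn3b was even with GFP at 34.6, 32.2 and 35.0 CPM, while the NeuroD1 libraries lay on both sides at 53.6, 20.1 and 57.0 CPM. The log2 fold changes were 0.46 (SE 0.48) for Scn2b and 0.36 (SE 0.36) for Scn3b, with edgeR adjusted p = 0.558 and 0.538. Without NeuroD1 replicate 2 both were higher in each remaining NeuroD1 library, with log2 fold changes of 0.85 and 0.71 (edgeR adjusted p = 0.178 and 0.153). For Scn4b, which shapes resurgent current, the log2 fold change was -0.14 (SE 0.55).

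The L-type pore subunits differed in pattern. Cacna1c encodes Cav1.2, the main L-type channel of brain and of vascular smooth muscle, and held 56.7, 55.0 and 71.6 CPM with GFP and 68.5, 45.8 and 68.2 CPM with NeuroD1. The groups were alike in range, with a log2 fold change of -0.01 (SE 0.23, edgeR adjusted p = 0.988). Cacna1d encodes Cav1.3, which opens at more negative potentials (chr14:30039939-30491455, minus strand). Its levels were 59.4, 81.9 and 87.8 CPM with GFP and 52.3, 55.0 and 58.2 CPM with NeuroD1. The NeuroD1 libraries lay close together and below all GFP libraries, GFP replicate 1 by a narrow margin. The log2 fold change was -0.47 (SE 0.21, edgeR adjusted p = 0.209). Exons of Cacna1d share 589 bases with Chdh on the opposite strand. Cacna1s, the skeletal muscle L-type pore, held only 8 to 19 counts in a library. Its levels were 1.42, 1.07 and 1.41 CPM with GFP and 1.36, 1.84 and 1.705 CPM with NeuroD1, which overlap (log2 fold change 0.32, SE 0.40, edgeR adjusted p = 0.638).

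Among the presynaptic Cav2 pores, Cacna1a and Cacna1e lay on opposite sides. Cacna1a encodes the P/Q-type Cav2.1, the main trigger of release at central synapses (chr8:84388440-84640246, plus strand). It held 159.8, 138 and 137 CPM with GFP and 108, 102 and 119 CPM with NeuroD1, which did not overlap. Its log2 fold change was -0.41 (SE 0.19, edgeR adjusted p = 0.233) and stayed between -0.46 and -0.35 whichever library was left out. Cacna1e encodes the R-type Cav2.3 (chr1:154390731-154884501, minus strand) and held 71.7, 34.6 and 38.4 CPM with GFP and 147, 48.3 and 78.9 CPM with NeuroD1. Only NeuroD1 replicate 2 fell among the GFP libraries. Its log2 fold change, 0.92 (SE 0.43, edgeR adjusted p = 0.232), was 0.40 on leaving out NeuroD1 replicate 1 and 1.31 on leaving out GFP replicate 1. Cacna1b, the N-type Cav2.2, held 65.6, 56.1 and 82.0 CPM with GFP and 83.4, 31.6 and 81.8 CPM with NeuroD1, with no separation (log2 fold change -0.05, SE 0.36, edgeR adjusted p = 0.942).

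Low-voltage-activated Cav3 channels support burst firing. Cacna1g encodes Cav3.1 (chr11:94408391-94474198, minus strand) and held 97.6, 90.8 and 108 CPM with GFP and 74.9, 51.7 and 74.6 CPM with NeuroD1. All NeuroD1 libraries were below all GFP libraries. The level was 1.48-fold lower, a log2 fold change of -0.56 (SE 0.21, edgeR adjusted p = 0.175). The unadjusted edgeR p was 0.0295, and it became 0.0651 on leaving out NeuroD1 replicate 2, to 0.0512 on leaving out GFP replicate 1 and to 0.109 on leaving out GFP replicate 3. Cacna1h, which encodes Cav3.2, held 35.4, 99.2 and 52.3 CPM with GFP and 34.1, 29.6 and 45.7 CPM with NeuroD1. GFP replicate 2 was far above the other 5 libraries, and the log2 fold change of -0.77 (SE 0.37, edgeR adjusted p = 0.238) was -0.26 without it and -1.07 without GFP replicate 1. GFP replicate 2 also held the highest sum of the pericyte and smooth muscle markers, 419 CPM. The other GFP libraries held 258.5 and 302 CPM, and the NeuroD1 libraries 170.4 to 369 CPM. The 369 CPM was in NeuroD1 replicate 2, where Cacna1h was lowest. Endothelial markers were highest in GFP replicate 2 as well (550.4 CPM, elsewhere 161.3 to 376 CPM), as were oligodendrocyte markers (20620 CPM, elsewhere 6677 to 12000 CPM). The part of any of these cells in the Cacna1h value was not tested. Exons of Cacna1h share 158 bases with Tpsg1 on the opposite strand. Cacna1i, Cav3.3, held 70.3, 33.1 and 48.9 CPM with GFP and 79.2, 21.5 and 46.4 CPM with NeuroD1 (log2 fold change -0.05, SE 0.45, edgeR adjusted p = 0.954).

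Alpha2delta subunits, the extracellular partners that carry pores to the surface and include the targets of gabapentin-type drugs, held the lowest log2 fold change of the tested members. Cacna2d4, a subunit best known from photoreceptors (chr6:119236526-119352407, plus strand), had 47, 76 and 55 counts with GFP and 36, 33 and 39 with NeuroD1. Those counts correspond to 4.76, 10.2 and 5.98 CPM and to 2.71, 3.19 and 3.50 CPM. The NeuroD1 libraries lay close together below all GFP libraries, and GFP replicate 2 stood above the others. The level was 2.21-fold lower, a log2 fold change of -1.14 (SE 0.37, edgeR adjusted p = 0.145). The unadjusted edgeR p was 0.0137. Without GFP replicate 2 the log2 fold change was -0.77 and the unadjusted p 0.0757. Cacna2d1, the most abundant alpha2delta gene per kilobase, held 93.5, 52.0 and 90.7 CPM with GFP and 152, 65.2 and 138 CPM with NeuroD1. NeuroD1 replicate 2 alone fell within the GFP range (log2 fold change 0.59, SE 0.36, edgeR adjusted p = 0.332). Cacna2d2 and Cacna2d3 overlapped between groups, with log2 fold changes of -0.18 (SE 0.26) and 0.18 (SE 0.46).

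The cytoplasmic beta subunits bind the pore's first intracellular loop and raise its surface expression. Cacnb3, a window of which is printed above (gene chr15:98630840-98644529, plus strand), was the most abundant of them per kilobase. It held 267, 228 and 269 CPM with GFP and 140.5, 93.8 and 196 CPM with NeuroD1. Each NeuroD1 library was below each GFP library, with replicate 3 the nearest. The level was 1.78-fold lower, a log2 fold change of -0.83 (SE 0.29, edgeR adjusted p = 0.158). The unadjusted edgeR p was 0.0202, and it became 0.0583 on leaving out NeuroD1 replicate 1 and 0.0595 on leaving out GFP replicate 3. With offsets for length and GC content the log2 fold change was -0.52, the unadjusted p was 0.082 and the groups overlapped. Cacnb1 held 86.8 to 95.2 CPM with GFP and 98.1, 35.5 and 102 CPM with NeuroD1, where replicate 2 was the lowest of all 6 libraries and the other NeuroD1 libraries the highest. Cacnb2 and Cacnb4, the latter a subunit whose loss causes ataxia in lethargic mice, had log2 fold changes of 0.24 (SE 0.27) and 0.31 (SE 0.45).

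**Figure D2:**
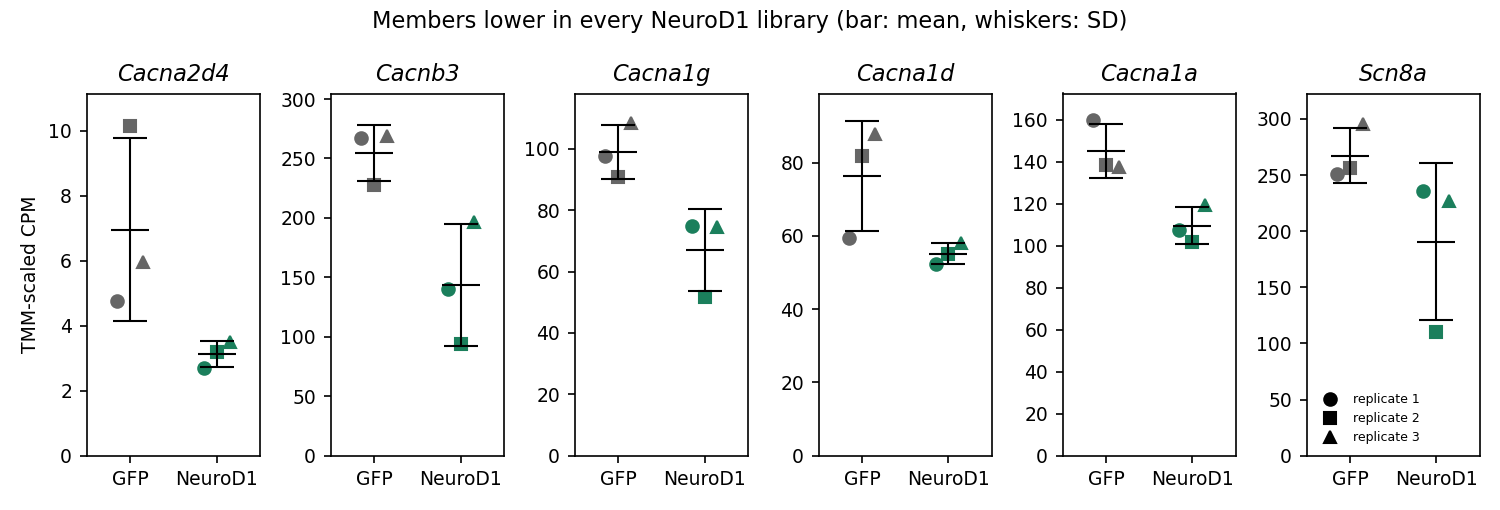
TMM-scaled CPM of the 6 tested members whose groups did not overlap, for the 3 GFP (grey) and 3 NeuroD1 (green) libraries, with marker shape for the replicate and mean ± SD in black; each axis starts at 0. Every NeuroD1 library is below every GFP library in each panel, with Cacnb3 between 93.8 and 196 CPM against 228 to 269 CPM.

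Gamma genes were all within overlapping ranges. Cacng2, which encodes stargazin, the founding TARP, held 48.6, 35.9 and 32.9 CPM with GFP and 37.1, 19.3 and 37.7 CPM with NeuroD1. Cacng7 and Cacng3 had the highest levels of the class per kilobase, 30.1 ± 11.5 and 22.7 ± 2.38 CPM per kilobase with GFP and 26.9 ± 5.45 and 17 ± 6.83 with NeuroD1 (SD, n = 3). Log2 fold changes of the 6 tested gamma genes ran from -0.42 (Cacng3) to 0.41 (Cacng4), with a smallest edgeR adjusted p of 0.39. Cacng4 is also expressed by oligodendrocyte precursors, of whose 6 markers Pdgfra, Cspg4 and Gpr17 were higher at an unadjusted edgeR p under 0.05, where 12.5% of all tested genes were. The other 3, Olig1, Olig2 and Sox10, which mature oligodendrocytes also express, had log2 fold changes of -0.36, -0.17 and -0.32, and Sox10 was below GFP in every NeuroD1 library. The 6 markers had summed levels of 507 to 577 CPM with GFP and 578 to 790.2 CPM with NeuroD1. The part of those cells in the Cacng4 value was not tested.

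The 6 members that could not be tested are genes of muscle, retina and sensory ganglia. Scn4a, the skeletal muscle alpha subunit, had 11 counts in NeuroD1 replicate 2 and 0 to 4 in every other library. Cacng1, the gamma subunit of the skeletal muscle L-type channel, had 8 counts in that library, 1 in NeuroD1 replicate 3 and 0 in the other 4. Both were highest in the library with the muscle markers. Cacna1f (retinal Cav1.4), Cacng6, Scn10a and Scn11a (both of sensory neurons) had at most 4 to 8 counts in any library. At this depth a difference in these 6 genes was not detectable.

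Sums over a class show the same dependence on NeuroD1 replicate 2. The sodium alpha subunits together held 467, 373 and 472 CPM with GFP and 569, 219.6 and 440.1 CPM with NeuroD1. Summed Cav3 levels were tight with GFP, at 203, 223 and 209.7 CPM, and lower in all 3 NeuroD1 libraries, at 188, 103 and 167 CPM. Calcium beta subunits together held 379 to 477 CPM with GFP and 413, 186 and 396.5 CPM with NeuroD1, which overlap. The alpha2delta sum was the only class sum besides Cav2 with a higher mean with NeuroD1, 180.6 ± 67.2 against 144.9 ± 35.5 CPM (SD, n = 3), with a log2 ratio of 0.32 that was 0.01 with the offsets for length and GC content and ran from 0.13 to 0.60 over the libraries left out. For Cav2 the means were 266.5 ± 79.0 and 261 ± 34.2 CPM. The Cav2 log2 ratio ran from -0.17 to 0.25 over the libraries left out, so its direction was not stable.

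Ratios within a library cancel its depth and, for genes of the same cells, its content of those cells. All 63 pairs of tested members of a class were compared, a family chosen after the levels were seen. In 17 pairs the groups did not overlap, each with a two-sided exact permutation p of 0.1, the smallest that 3 against 3 allows (0.371 after Benjamini-Hochberg adjustment over the 63 pairs). That is 27.0% of the pairs, near the 29.6% of all pairs of tested genes whose ratios did not overlap, so the count is no result about the channel genes. The ratios below describe single pairs, picked after their values were seen. Of the 17, 9 also did not overlap with offsets for length and GC content. The ratio of Scn2a1 to Scn8a was 0.478, 0.264 and 0.333 with GFP and 0.966, 0.566 and 0.58 with NeuroD1. It was higher in every NeuroD1 library, replicate 2 included, with a mean log2 difference of 0.97, or 0.78 with those offsets. The ratio of Scn3a to Scn8a was likewise higher, at 0.0902, 0.124 and 0.0983 against 0.0691, 0.0584 and 0.0648. Cacnb2 to Cacnb3 stood at 0.0693, 0.0704 and 0.0634 with GFP and 0.153, 0.143 and 0.133 with NeuroD1, a mean log2 difference of 1.08 (0.59 with the offsets). Cacng2 to Cacng4 was 3.53, 3.64 and 4.66 with GFP and 2.48, 2.16 and 2.23 with NeuroD1. Because Cacng4 is also expressed by oligodendrocyte precursors, the content of cells need not cancel in that ratio. Cacna1a to Cacna1e was 2.23, 4.0 and 3.58 with GFP and 0.733, 2.11 and 1.51 with NeuroD1, but overlapped with the offsets.

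**Figure D3:**
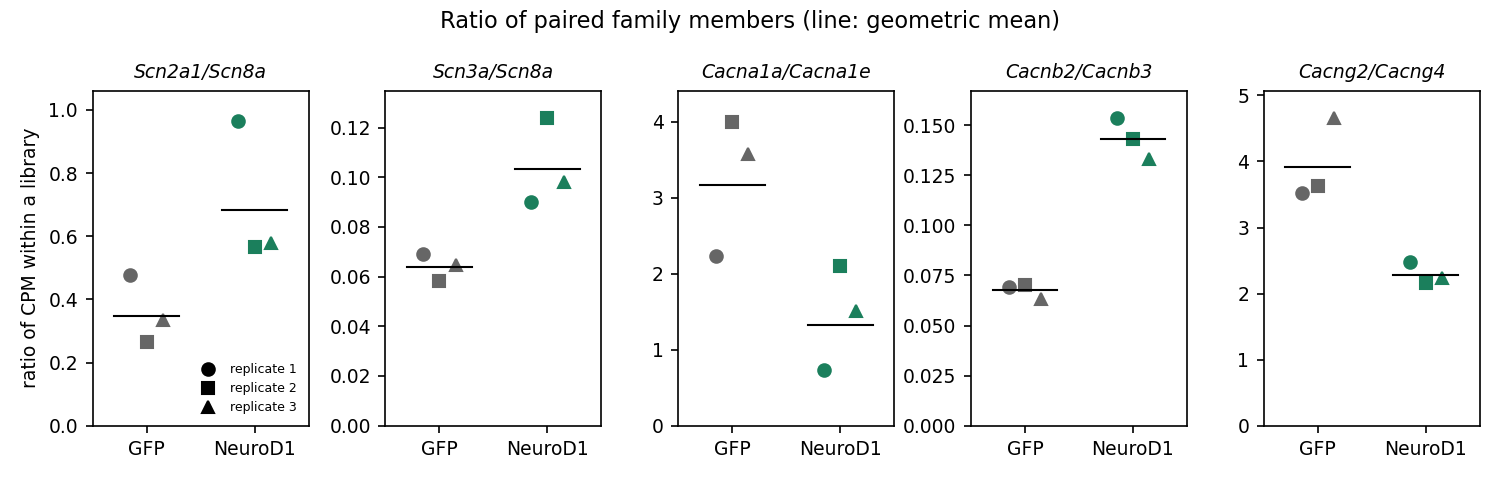
Ratio of CPM of 2 genes of a class within each library, for 5 pairs, with GFP in grey, NeuroD1 in green, marker shape for the replicate and a line at the geometric mean; each axis starts at 0. In each panel the 3 NeuroD1 libraries lie apart from the 3 GFP libraries, as for Cacnb2/Cacnb3 with 0.133 to 0.153 against 0.0634 to 0.0704.

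Channel genes have long transcripts, with a median of 6794.5 bases for the longest annotated transcript of the 34 tested members against 3188.5 bases for all tested genes. Across the tested members log2 fold change and GC content had a Spearman correlation of -0.46 (n = 34 genes, which share libraries and are not independent). Across 14768 tested genes it was -0.31, and the correlation with length was 0.1 for members and 0.31 for all. Members low in GC, such as Scn7a, Cacna2d1 and Scn2a1 at 40.2% to 43.4%, had fitted levels above those with GFP, and Cacnb3, at 61.3%, had a level below. Scn1a and Scn9a, at 43.3% and 42.4%, did not follow this, nor did Cacng8 at 65%. With offsets for length and GC the median of the tested members was -0.19. The log2 fold changes of Cacna2d1 and Scn7a were then 0.11 and 0.25, and the sign turned for Scn3a, Cacnb4, Cacnb1 and Cacng7. Then 5 members were lower at an unadjusted edgeR p under 0.05 (background 10.8%) and 0 higher (background 11.7%). The 5 were Cacna1g, Cacna1d, Scn8a, Cacna2d4 and Cacna1a. The part of GC content in the fold changes was not tested further.

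**Figure D4:**
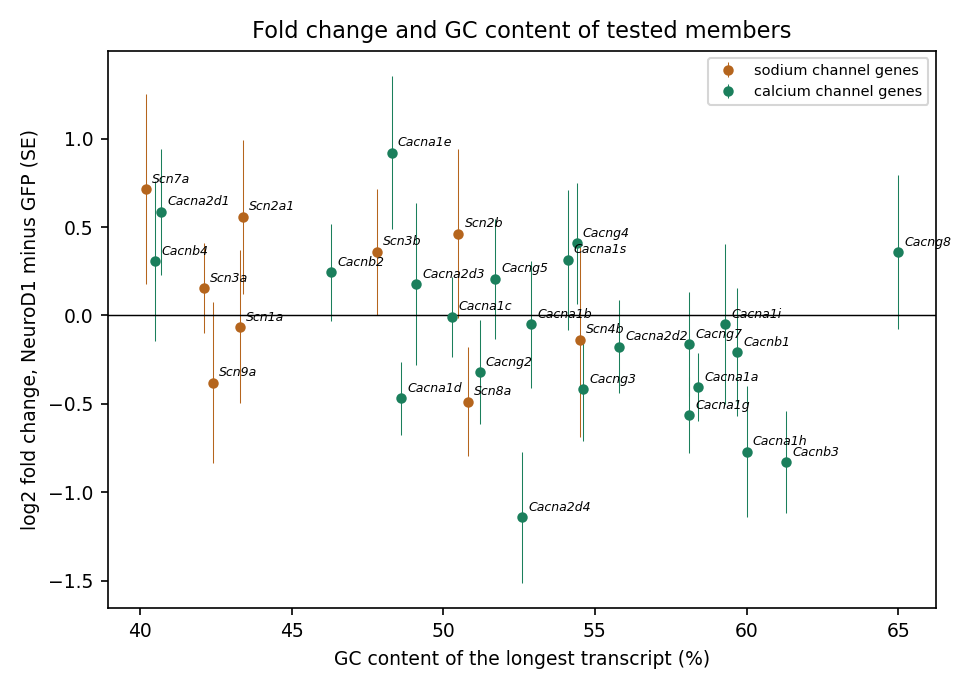
Log2 fold change of NeuroD1 against GFP (SE as whiskers) for 32 of the 34 tested members against the GC content of the longest annotated transcript in percent, with sodium channel genes in brown and calcium channel genes in green. Points fall from the upper left to the lower right, with a Spearman correlation of -0.46 over the 34 genes, and Cacng8 lies off that trend.

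Neuronal markers give the frame for these levels. Of 12 pan-neuronal markers 0 had an unadjusted edgeR p under 0.05, with a median log2 fold change of -0.05 and sums of 5654, 3068 and 4343 CPM with GFP and 5056, 2190 and 6080 CPM with NeuroD1. When each library was scaled to the geometric mean of these 12 genes, an alternative chosen after the data were seen, 3 members were above every GFP library (background 4.59%) and 2 below (background 3.68%). On that scale Cacna1e, Cacna2d1 and Cacng8 were higher and Cacnb3 was among the lower, and 0 members had an unadjusted edgeR p under 0.05 (background 4.92% higher and 2.41% lower). This scaling moved the median of all genes from 0.02 to 0.14.

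Partners of the channels were read from a pair of lists of interactors and related genes. For sodium channels the 15 genes include the axon initial segment scaffold and fibroblast growth factor homologous factors. The list also holds Nalcn, Unc79 and Unc80, which belong to a separate channel, the NALCN leak channel. Of the 15, 0 passed the adjusted threshold. At an unadjusted edgeR p under 0.05, 2 were lower and 0 higher, where the backgrounds are those given above. Among them Sptbn4, the spectrin that anchors channels at the initial segment, was 196, 193.8 and 228.5 CPM with GFP and 95.5, 67.4 and 157 CPM with NeuroD1, all below GFP (log2 fold change -0.95, SE 0.31, edgeR adjusted p = 0.147). Sptbn4 is high in GC, at 63.7%, and the part of GC content in its value was not tested. Nalcn, the leak channel, overlapped between groups with a log2 fold change of 0.74 (SE 0.38, edgeR adjusted p = 0.263). Without NeuroD1 replicate 2, 6 of the 15 were higher (background 12.2%) and 1 lower (background 11.9%) on the same scale.

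For calcium channels the 22 partners include active zone scaffolds, ryanodine receptors, small GTPases that inhibit the channels, and calmodulin-family sensors. Of the 21 tested, 0 passed the adjusted threshold, and 1 was lower and 0 higher at an unadjusted edgeR p under 0.05. That gene was Cabp1, a calmodulin relative that modulates Cav1 and Cav2 gating. It held 113, 112 and 99.3 CPM with GFP and 45.2, 24.8 and 63.8 CPM with NeuroD1, with no overlap (log2 fold change -1.28, SE 0.32, edgeR adjusted p = 0.136). The GC content of Cabp1 is high, at 68.2%, and the part of GC content in its value was not tested. Rimbp2, an active zone protein that ties Cav2 channels to vesicles, had a log2 fold change of 1.17 (SE 0.62, edgeR adjusted p = 0.272), and Ryr1 one of -0.84 (SE 0.47, edgeR adjusted p = 0.3).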

How the data were processed

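The deposited values are unnormalised counts for each gene symbol. Per the file headers, the authors obtained them by featureCounts with a gene file of mm10. The submitters' processing notes list HISAT2 2.0.1, DESeq2 1.16.1 and GRCm38, with no role stated. The strand setting, the treatment of multi-mapping reads and the annotation release were not given in the sources used here. Columns were matched to samples by the description in the labels, and 0 columns were unused. Total counts were 7753101 to 13440244 per library.

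Genes were kept by filterByExpr (minimum count 10, minimum total 15). Group differences were tested with edgeR 4.0.16 (quasi-likelihood F-test, R 4.3.3) after TMM scaling, with no covariate and with Benjamini-Hochberg adjustment over all tested genes at 0.05. SEs come from the F statistic. Alternatives were DESeq2 1.42.0, limma-voom (limma 3.58.1), other scalings and filters, a replicate block, offsets for transcript length and GC content (natural splines, 4 degrees of freedom per library), leaving out each library and, added after the data were seen, scaling to pan-neuronal markers. Lengths and coordinates are from GENCODE M21 (GRCm38), matched for 23376 symbols directly and 666 through older symbols. Any 2 libraries of a group differed by far more than sampling noise (chi-square per gene 28.9 to 108, against about 1), so none was counted as a duplicate. The edgeR script was tested on simulated data with known changes.

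The channel genes and gene lists were chosen with earlier results of these data known. Given by library were Neurod1, every tested pore subunit reported here, and every tested member at an unadjusted p under 0.05 or with no overlap between groups. Of the others, at most 3 a class are named by level, and of a partner or marker list at most 3 by smallest p. Some lists are given by counts or sums only. Genes named beyond this rule were chosen after their values were seen. A few genes are counted in the totals but not reported here by name or shown in the figures.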

Additional observations from a re-analysis of the deposited data

How the results depend on the processing

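The count of tested channel genes past the adjusted threshold was 0 in each direction with all 16 alternatives run. At an unadjusted p under 0.05 the count of higher members, 0 by the edgeR test as reported, was 1 with DESeq2, 1 with no filter, 2 with the replicate block and 2 with the length and GC offsets plus the block, and 0 to 6 when a library was left out. The count of lower members, 3 as reported, was 5 with upper quartile scaling, 5 with the block, 5 with the offsets, 7 with the offsets plus the block and 0 with pan-neuronal scaling, and 1 to 5 with a library left out. Over all tested genes, in either direction, 3564 of 14852 were under 0.05 as reported and 3537 with upper quartile scaling. There were 5016 with the block, 3332 with the offsets, 4300 with the offsets plus the block and 1089 with pan-neuronal scaling. DESeq2 gave 4114, the fit without a filter 4029 of 19432, and leaving out a library 1804 to 4374. The member counts are to be read beside these. Members with no overlap numbered 3 higher and 2 lower with pan-neuronal scaling (backgrounds 4.59% and 3.68%). With a library left out they numbered 0 to 11 higher and 6 to 10 lower. Among the libraries left out, a background was counted only for NeuroD1 replicate 2, at 22.5% higher and 23.3% lower. Among the settings that leave out a library, the largest counts of higher members came without NeuroD1 replicate 2 and those of lower members without NeuroD1 replicate 3. The median log2 fold change ran from -0.20 to 0.23 over the libraries left out, and it was above 0 without NeuroD1 replicate 2 (0.23), GFP replicate 1 (0.16) or GFP replicate 3 (0.024). The cause of these shifts was not tested.

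Neurod1 passed the adjusted threshold with DESeq2 (log2 fold change 2.71, adjusted p = 1.08e-05), with the block (2.58), with the offsets plus the block (2.47) and without NeuroD1 replicate 2, and its log2 fold change ran from 2.33 to 3.04 over the libraries left out. Signs turned for Cacna1c with DESeq2 (0.011) and with no filter (0.017), and for Scn3a with the offsets (-0.30) and the offsets plus the block (-0.31). Over the libraries left out, Cacna1c ran from -0.095 to 0.17, Cacna1b from -0.26 to 0.29, Cacna1i from -0.58 to 0.31, Scn1a from -0.54 to 0.31 and Scn9a from -0.65 to 0.044. The replicate block rests on shared numbers only, because deviations of same-numbered samples correlated by 0.54, 0.37 and 0.04 for replicates 1, 2 and 3, and GFP replicate 3 correlated best with NeuroD1 replicate 2 (0.13). With the block 479 of all tested genes passed the adjusted threshold, and 0 members did. DESeq2 called 1374 genes and edgeR 0. Depth limits the 6 members that could not be tested, none of which had over 11 counts in a library.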

Other observations

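Several of these genes lie side by side in the genome. Scn3a, Scn2a1, Scn1a, Scn2b, Scn4b and Cacng8, among those named here, were lowest in NeuroD1 replicate 2. On chromosome 2, Scn3a, Scn2a1, Scn1a, Scn9a and Scn7a lie between positions 65457118 and 66784914 (GRCm38), and their log2 fold changes were 0.15, 0.56, -0.06, -0.38 and 0.72 in that order, with SE from 0.25 to 0.54. Scn2b and Scn4b, neighbours on chromosome 9, had 0.46 (SE 0.48) and -0.14 (SE 0.55). Cacng7 and Cacng8, neighbours on chromosome 7, had -0.16 (SE 0.29) and 0.36 (SE 0.44). None of the differences between neighbours was tested.

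Interneuron markers lay on both sides beside the subunits those cells use. Of 7 GABAergic interneuron markers, 1 was higher and 1 lower at an unadjusted edgeR p under 0.05 (backgrounds 12.5% and 11.5%). Those were Gad2 and Pvalb. Of the 7, 3 had a log2 fold change above 0, and their median was -0.05. Pvalb, the calcium buffer of fast-spiking interneurons, which rely on Scn1a, held 54.9, 38.1 and 44.7 CPM with GFP and 21.5, 40.5 and 25 CPM with NeuroD1 (log2 fold change -0.66, SE 0.28, edgeR adjusted p = 0.196). Gad2, a GABA-synthesising enzyme, held 62.4, 29.4 and 41.0 CPM with GFP and 94.8, 50.1 and 107 CPM with NeuroD1 (0.92, SE 0.36, edgeR adjusted p = 0.177). Both overlapped between groups, as did Scn1a. For Pvalb the overlap rests on NeuroD1 replicate 2 alone, the library with the muscle markers, and the other NeuroD1 libraries were below all GFP libraries. The part of muscle in that Pvalb value was not tested.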
